A study of Homo sapiens with 15 samples.

Results

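The genes described here are 10 genes read as output and feedback of the kinase ERK: EGR1, ETV4, ETV5, DUSP4, DUSP5, DUSP6, SPRY2, SPRY4, SPRED1 and SPRED2. They were chosen by name, from what is known of the pathway and with earlier results of these data known, among 19775 genes measured on 15 Affymetrix HG-U133 Plus 2.0 arrays. All 10 were measured, by 25 probe sets whose annotation holds 1 symbol: 3 genes had 1 probe set, 1 gene had 2, 5 genes had 3 and ETV5 had 5. For each gene the probe set with the highest mean over all arrays is the main one, and the other 15 are given beside it. The cells were A549, an established human line from a lung carcinoma, given geldanamycin, which blocks the ATP pocket of the chaperone HSP90, or the solvent DMSO (0.4%) as vehicle. At 24 h there were a vehicle group and a 40 nM group, and at 48 h a vehicle group, a 10 nM group and a 40 nM group, each of 3 arrays. In the study's description 40 nM was the IC50 and 10 nM the IC20 in these cells. All cells were left to attach for 24 h before treatment, and all values come from 1 cell line.

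ERK is the last kinase of a cascade that runs from growth factor receptors through RAS, RAF and MEK. Active ERK phosphorylates transcription factors of the ETS family and kinases of the RSK family, and the genes they switch on fall into an output and a brake. EGR1 encodes a zinc finger transcription factor made within minutes of a growth signal, and ETV4 and ETV5 encode ETS factors of the PEA3 group that carry the signal on to later genes. DUSP4, DUSP5 and DUSP6 encode phosphatases that take the phosphates off ERK; DUSP6 does so in the cytoplasm, DUSP4 and DUSP5 in the nucleus. SPRY2, SPRY4, SPRED1 and SPRED2 encode membrane-associated inhibitors that act further up, at RAS and RAF, SPRED1 and SPRED2 with neurofibromin. Several kinases of this cascade depend on HSP90 and its kinase-loading partner CDC37 to keep their fold, which is why transcripts below ERK are of interest in cells given geldanamycin.

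The RefSeq table of promoter windows, on GRCh38.p14, held 9 windows for 6 of the 10 genes, each running from 250 bases before to 50 bases after a transcription start; DUSP4, DUSP5, ETV4 and ETV5 had none. Of 6 motifs searched on both strands, the CArG box, the site of serum response factor, was in the EGR1 window only, which holds 2, and in 1.29% of all 35116 windows of 300 bases. The 250 bases before the start are printed for EGR1, which had the largest fall, and for the 2 sprouty genes, with 1 motif in capitals. In EGR1 (chr5:138465229-138465478, plus strand) the capitals mark the CArG boxes, in the most upstream window of SPRY2 (chr13:80341127-80341376, minus strand) the ETS core CCGGAA, and in SPRY4 (chr5:142324248-142324497, minus strand) the EGR site GCGNGGGCG, which there lies on the other strand.
EGR1: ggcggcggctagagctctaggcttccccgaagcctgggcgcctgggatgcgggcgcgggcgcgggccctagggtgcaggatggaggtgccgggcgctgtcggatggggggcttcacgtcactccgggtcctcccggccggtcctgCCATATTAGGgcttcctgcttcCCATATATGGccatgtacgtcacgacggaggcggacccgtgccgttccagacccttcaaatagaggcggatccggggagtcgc
SPRY2: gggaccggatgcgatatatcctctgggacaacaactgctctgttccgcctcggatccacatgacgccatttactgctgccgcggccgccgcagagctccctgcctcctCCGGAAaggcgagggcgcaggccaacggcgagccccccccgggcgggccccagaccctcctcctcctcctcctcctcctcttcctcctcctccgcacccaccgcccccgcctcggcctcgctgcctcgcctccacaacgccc
SPRY4: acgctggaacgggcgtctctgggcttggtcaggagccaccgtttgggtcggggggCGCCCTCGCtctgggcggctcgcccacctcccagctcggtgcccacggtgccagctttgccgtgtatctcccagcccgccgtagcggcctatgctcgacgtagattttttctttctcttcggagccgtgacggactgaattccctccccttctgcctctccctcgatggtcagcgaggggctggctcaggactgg
The EGR site was also in the EGR1 window (1) and in that SPRY2 window (2), and in 9.43% of all windows. As the full letters CCGGAA, the ETS core was in 17.2% of all windows, and SPRY2 was the 1 gene of the 6 whose windows held them. Shorter forms of the ETS core were not searched, so their absence from the other windows is not shown. The CRE core TGACG was in windows of EGR1 (2), SPRY2 (1), SPRY4 (1) and SPRED2 (1), against 24.6% of all windows, and the AP-1 site TGANTCA, in 7.71% of all windows, was found in the second SPRED2 window (2). The core of the heat shock element, GAANNTTC, was in none of the 9 windows and in 6.77% of all. No 2 matches of different motifs share bases. The windows of DUSP6 and SPRED1 held none of the 6 motifs. These matches describe letters in a window and say nothing about binding.

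The values are log2 expression values deposited by the authors, made with RMA, which makes the distributions of arrays in the same run alike. A value of 1 more on this scale is a level 2-fold higher. The mean over all probe sets was 5.13 in vehicle at 24 h and 5.52 at 48 h, so the times stand apart by a step. Treated groups are therefore set against the vehicle of their own time. The times may have been normalized in separate runs and may lie on different scales, which was not tested. The 10 nM arrays stood apart from the other arrays. The poly-A spike controls, which are put into the RNA before it is labelled, averaged 3.37 ± 0.04 (SD, n = 3) on them against 5.93 ± 0.06 in vehicle at 48 h. Their 3' minus 5' difference for the control probe sets of ACTB was 2.68 ± 0.03 against 0.35 ± 0.06. LUM and KRT19, markers of fibroblasts and of epithelium, stood at 2.92 and 5.90 on them, against 6.37 and 8.31 in vehicle at 48 h and 2.53 and 4.85 in vehicle at 24 h. LUM and KRT19 were picked from the 6 fibroblast and 7 epithelial markers below. At 10 nM no other of these fell as far from vehicle at 48 h. The epithelial CDH1 was higher at 10 nM, at 9.78 against 6.95 in vehicle at 48 h and 7.36 in vehicle at 24 h. CDH1 also read high at 40 nM, 10.16 at 24 h and 8.73 at 48 h. KRT18 read 14.02 at 10 nM against 13.59 in vehicle at 48 h, and KRT7 read 13.04 against 13.49. Every statement on 10 nM below rests on the 10 nM arrays, and what part these differences have in it was not tested. The 40 nM results are given with all arrays in the fit; without the 10 nM arrays none of their calls for the 10 genes changed. The epithelial keratins KRT8 and KRT18, which define this line's origin, lay between 12.15 and 14.02 in all groups. The 7 epithelial markers summed to between 59.74 and 68.42 over the groups, the 6 measured alveolar type 2 markers to between 29.92 and 33.60, 6 fibroblast markers to between 27.68 and 34.02, 4 measured leukocyte markers to between 15.99 and 20.63 and 5 endothelial markers to between 19.47 and 21.55. PTPRC, which defines leukocytes, was at most 3.56, and the endothelial CDH5 at most 2.98, but other markers of these cells were brighter. CD14, a monocyte marker, read 5.52 in vehicle at 48 h, 5.31 at 10 nM and 6.38 at 40 nM, and ITGAM, a myeloid marker, read 4.41, 5.52 and 5.62 in the same groups. Above the median of all probe sets were 3 of the 4 leukocyte markers in both treated groups at 48 h and 2 in the other groups, and 2 of the 5 endothelial markers in every group, PECAM1 reaching 5.67 and TEK 5.18. So were 3 to 4 of the 6 fibroblast markers, COL1A1 lying between 7.79 and 8.78, and 4 of the 6 alveolar type 2 markers. Of the 7 epithelial markers 6 to 7 were above it. EPCAM was below it in vehicle at 24 h (3.97) and at most 5.63, and CLDN4 lay between 4.79 and 5.06. The part of these markers in the results was not tested.

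After 24 h at 40 nM, transcripts of 8 of the 10 genes were lower by their main probe sets and that of 1, DUSP5, was higher. EGR1 and ETV5 fell most, 4.32-fold and 3.88-fold, and DUSP5 rose 2.37-fold. In RNA from a whole culture, fewer cells that make a transcript and less of it per cell cannot be told apart. In limma's test (adjusted p below 0.05) 16.7% of all 19775 genes were called lower, 14.8% higher and 31.5% in either direction. The median log2 change of the 10 genes was -0.67, beside -0.0072 over all genes. For 8 genes every treated array lay below every vehicle array, as it did for 19.7% of all genes, and for DUSP5 every treated array lay above, as for 17.9% of all genes. These counts of 8 and 1 were the same in the fit without the 10 nM arrays and in each fit that left out 1 array.

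**Figure D1:**
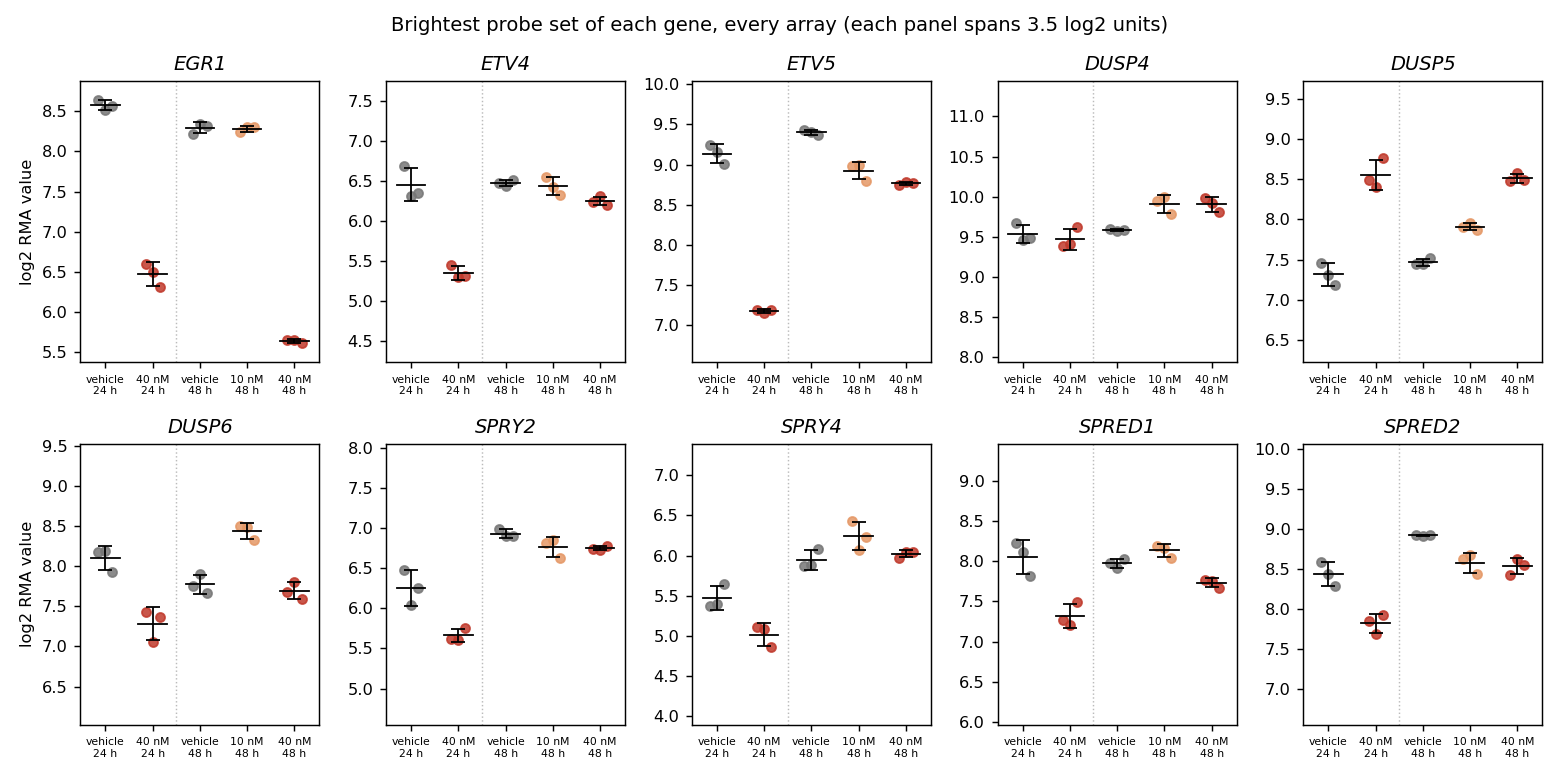
Log2 RMA value of the brightest probe set of each gene on each of the 15 arrays, 1 panel a gene, each panel spanning the same number of log2 units; points are arrays, the long bar is the group mean and the whiskers are 1 SD (n = 3). EGR1 is low in both 40 nM groups, ETV4 and ETV5 mostly at 24 h, and DUSP5 is high in all 3 treated groups.

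Among the transcription factors, EGR1 read 8.64, 8.52 and 8.57 on the vehicle arrays and 6.60, 6.50 and 6.31 on the 40 nM arrays at 24 h. The groups lie far apart, and the change was -2.11 ± 0.07 (SE, n = 3 per group), a 4.32-fold lower level (limma adjusted p = 1.12e-10). ETV5 read 9.24, 9.15 and 9.01 in vehicle and 7.19, 7.15 and 7.19 with 40 nM. It fell by 1.96 ± 0.07, or 3.88-fold (adjusted p = 1.45e-10 in limma). ETV4, its close relative, read 6.69, 6.31 and 6.35 in vehicle and 5.46, 5.30 and 5.31 with 40 nM. It fell by 1.10 ± 0.09, or 2.14-fold (limma adjusted p = 4.84e-07). The third gene of the PEA3 group, ETV1, is not among the 10; it fell by 1.96 ± 0.15.

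The 3 phosphatase genes did not move as a group at 24 h. DUSP6, the cytoplasmic one, read 8.17, 8.20 and 7.93 in vehicle and 7.43, 7.06 and 7.37 with 40 nM, and fell by 0.82 ± 0.11 (limma adjusted p = 3.23e-05). DUSP5, a nuclear one, read 7.46, 7.30 and 7.18 in vehicle and 8.50, 8.41 and 8.77 with 40 nM. It rose by 1.24 ± 0.09, or 2.37-fold (limma adjusted p = 1.01e-07), opposite to DUSP6. DUSP4, the other nuclear one, overlapped between the groups, at 9.67, 9.46 and 9.48 in vehicle and 9.38, 9.41 and 9.62 with 40 nM. Its change was -0.066 ± 0.08 (limma adjusted p = 0.633), with a 95% interval from -0.25 to 0.11. Its other probe sets differ from this reading, as given further on. With its probe sets averaged, DUSP4 passed as lower (-0.30, limma adjusted p = 0.00259).

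The 4 inhibitors that act above ERK all fell at 24 h. SPRED1 fell from 8.23, 8.11 and 7.82 to 7.27, 7.20 and 7.49, by 0.73 ± 0.10. SPRED2 fell from 8.59, 8.44 and 8.30 to 7.86, 7.69 and 7.93, by 0.61 ± 0.09. SPRY2 fell from 6.48, 6.04 and 6.25 to 5.62, 5.61 and 5.76, by 0.59 ± 0.10. In these 3 genes even the highest treated array was below the lowest vehicle array. SPRY4 had the smallest fall that passed the test, from 5.38, 5.40 and 5.64 to 5.11, 5.08 and 4.86, by 0.46 ± 0.10. Their limma adjusted p-values were 4.43e-05, 8.55e-05, 0.000225 and 0.00324 in that order, and the groups overlapped for none of the 4.

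After 48 h at 40 nM, EGR1 stood lower than its vehicle by more than 6-fold, DUSP5 was still about 2-fold higher, and the other changes were below 1 log2 unit. EGR1, ETV5 and SPRED2 were lower and DUSP5 and DUSP4 higher; 5 genes did not pass the test. In this comparison 10.7% of all genes were called lower, 10.5% higher and 21.3% either way, and the members' median log2 change was -0.20 beside -0.016 over all genes. In a fit of just these 2 groups 8 genes passed, 6 lower and 2 higher, ETV4, SPRED1 and SPRY2 being added (limma adjusted p = 0.0228, 0.0201 and 0.0463). In 6 genes every treated array lay below every vehicle array and in 2 every one lay above, as in 20.8% and 17.9% of all genes.

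EGR1 read 8.22, 8.34 and 8.32 on the vehicle arrays at 48 h and 5.66, 5.65 and 5.61 with 40 nM. This was a fall by 2.65 ± 0.07, or 6.30-fold (limma adjusted p = 5.17e-11). ETV5 read 9.44, 9.41 and 9.37 in vehicle and 8.75, 8.78 and 8.77 with 40 nM, a fall by 0.64 ± 0.07 or 1.56-fold (limma adjusted p = 1.18e-05). ETV4 read 6.48, 6.43 and 6.51 in vehicle and 6.24, 6.31 and 6.20 with 40 nM. Its change of -0.22 ± 0.09 did not pass (limma adjusted p = 0.115), although no treated array reached the lowest vehicle array.

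DUSP5 read 7.44, 7.44 and 7.52 in vehicle at 48 h and 8.47, 8.57 and 8.49 with 40 nM, a rise by 1.04 ± 0.09 or 2.06-fold (limma adjusted p = 1.49e-06). DUSP4 was nearly level in vehicle, at 9.59, 9.57 and 9.58, and read 9.98, 9.93 and 9.80 with 40 nM. It rose by 0.32 ± 0.08 (limma adjusted p = 0.0127). This call was lost when replicate 1 at 40 nM was left out (adjusted p = 0.0593), with array medians subtracted (0.0525) or when its probe sets were averaged (0.17, adjusted p = 0.0863), within a range from 0.00087 to 0.0863 over its alternatives. DUSP6, lower at 24 h, overlapped with vehicle at 48 h: 7.75, 7.90 and 7.67 in vehicle against 7.68, 7.81 and 7.60 with 40 nM. Its change was -0.079 ± 0.11 (limma adjusted p = 0.721; 95% interval from -0.31 to 0.15).

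Of the upstream inhibitors at 48 h, SPRED2 passed the test, with 8.93, 8.91 and 8.92 in vehicle and 8.43, 8.63 and 8.55 with 40 nM. It fell by 0.39 ± 0.09 (limma adjusted p = 0.00586). When its 3 probe sets, of which 2 are dim, were averaged, this call was lost (-0.17, adjusted p = 0.117). SPRED1 and SPRY2 stood below vehicle on every array without passing, by -0.24 ± 0.10 and -0.18 ± 0.10 (limma adjusted p = 0.108 and 0.246). SPRED1 passed with cyclic loess scaling (adjusted p = 0.0312) and with array weights (0.00871), and ETV4 with array weights (0.0219) and when its probe sets were averaged (0.00816). SPRY4 overlapped with vehicle, at 0.078 ± 0.10 (limma adjusted p = 0.718; 95% interval from -0.15 to 0.30).

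**Figure D2:**
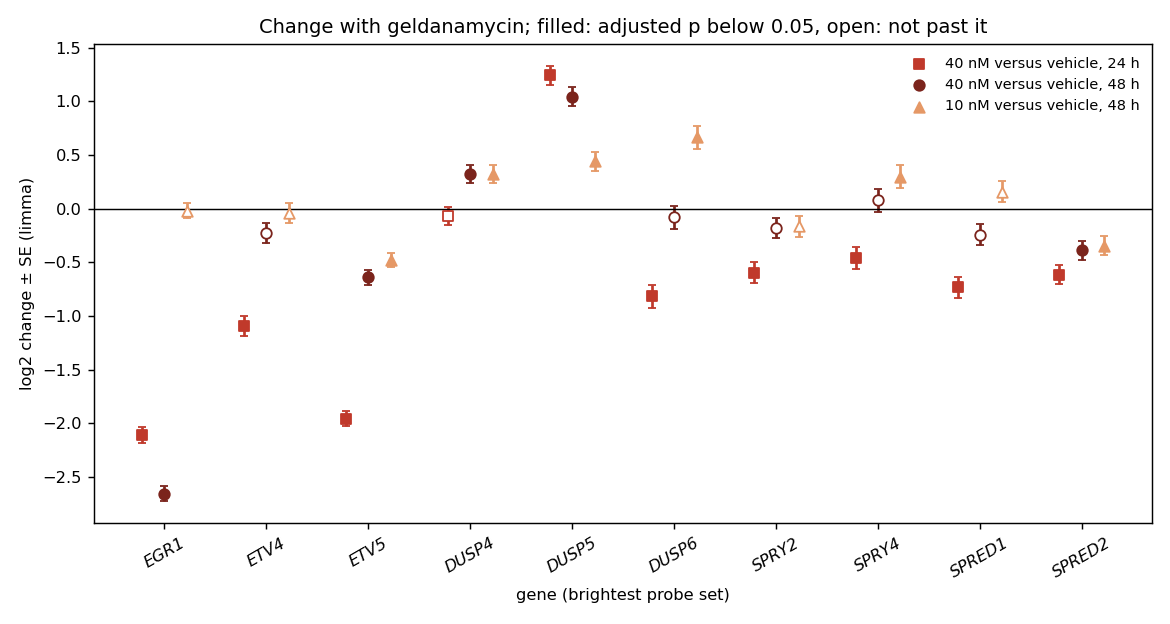
Log2 change against the vehicle of the same time for the brightest probe set of each gene (points, with the limma standard error as bars; n = 3 arrays per group), at 40 nM for 24 h and 48 h and at 10 nM for 48 h; filled symbols passed limma's test and open ones did not. At 24 h DUSP5 is the 1 gene above 0, while at 48 h EGR1 alone lies below -1 and DUSP5 alone above 1, both at 40 nM.

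At 10 nM for 48 h, EGR1 did not differ detectably from vehicle, DUSP6 was higher, and ETV5 and SPRED2 were lower. In all, 4 genes were called higher (DUSP4, DUSP5, DUSP6 and SPRY4) and 2 lower, where 14.4% of all genes were called higher, 11.9% lower and 26.3% either way. The members' median log2 change was 0.071, and that of all genes 0.0042. EGR1 read 8.24, 8.30 and 8.30 at 10 nM, within the range of its vehicle arrays, and its change was -0.017 ± 0.07 (limma adjusted p = 0.916; 95% interval from -0.17 to 0.14). DUSP6 read 8.50, 8.49 and 8.33, above all vehicle arrays of its time, a rise by 0.67 ± 0.11 or 1.59-fold (limma adjusted p = 0.000276). DUSP5 read 7.90, 7.95 and 7.87 and rose by 0.44 ± 0.09 (limma adjusted p = 0.00179).

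Of the ETS factors 1 passed the test at 10 nM. ETV5 read 8.98, 8.99 and 8.80 and fell by 0.48 ± 0.07 (limma adjusted p = 9.94e-05), while ETV4 overlapped with vehicle (-0.041 ± 0.09, limma adjusted p = 0.827). DUSP4 read 9.95, 10.00 and 9.78 and rose by 0.33 ± 0.08 (limma adjusted p = 0.0088). SPRED2 read 8.62, 8.68 and 8.44 and fell by 0.34 ± 0.09 (limma adjusted p = 0.00993). SPRY4 read 6.43, 6.07 and 6.23, overlapped with vehicle (5.86, 5.88 and 6.08) and rose by 0.30 ± 0.10 at the edge of the test (limma adjusted p = 0.0468). That call was lost under 10 of its 16 alternatives, whose adjusted p ranged from 0.00443 to 0.213; the arrays whose omission ended it were replicates 1 and 2 of the vehicle and replicates 1 and 3 at 10 nM. SPRED1 (0.16 ± 0.10) and SPRY2 (-0.16 ± 0.10) did not pass (limma adjusted p = 0.301 and 0.266). When the probe sets of each gene were averaged, 3 of the 10 genes were called, all higher; the calls of ETV5, DUSP4 and SPRED2 were lost.

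The dose was compared directly at 48 h. Between 40 nM and 10 nM, 3 genes were lower at the higher dose (EGR1, DUSP6 and SPRED1) and 1 was higher (DUSP5), where 14.5% of all genes were lower, 11.9% higher and 26.4% either way. From 10 nM to 40 nM EGR1 fell by 2.64 ± 0.07 on the log2 scale, or 6.23-fold (limma adjusted p = 1.11e-11). DUSP6 fell by 0.74 ± 0.11 and SPRED1 fell by 0.40 ± 0.10 from 10 nM to 40 nM (limma adjusted p = 0.000117 and 0.00725). The call of SPRED1 was lost when its probe sets were averaged (-0.24, adjusted p = 0.114), within a range from 8.2e-05 to 0.114 over its alternatives. In the fit of all arrays DUSP5 was the only gene of the 10 whose 3 groups at 48 h stood in order of dose with a passing difference at each step, 0.44 from vehicle to 10 nM and 0.60 ± 0.09 from 10 nM to 40 nM (limma adjusted p = 0.000155). By their main probe sets, DUSP4 and SPRED2, each called at both doses, differed between the doses by -0.0073 ± 0.08 and -0.043 ± 0.09. The 95% intervals ran from -0.19 to 0.17 and from -0.23 to 0.15. For DUSP4, however, 226034_at was higher at 40 nM than at 10 nM by 0.28 ± 0.07 (limma adjusted p = 0.00986), while 204015_s_at stood at -0.0039 ± 0.07. Of the 15 other probe sets 6 were lower at 40 nM and 1 was higher. Among all probe sets 9.63% were lower, 9.11% higher and 18.7% either way. ETV5 also fell in order of dose; its step from 10 nM to 40 nM was -0.16 ± 0.07 (limma adjusted p = 0.106), and it passed with cyclic loess (-0.12, adjusted p = 0.0481) and without replicate 3 at 10 nM (-0.22, adjusted p = 0.028), with its step from vehicle to 10 nM passing in both. With array weights 7 of the 10 passed, ETV4, ETV5 and SPRY4 being added, all lower at 40 nM. The control values of the 10 nM arrays given above stand beside all of these differences.

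The effect of 40 nM on the 10 genes differed between the times. In limma's test of the difference of effects, 6 genes had a more positive effect at 48 h than at 24 h and 1, EGR1, a more negative one, where 9.18% of all genes were more positive, 8.11% more negative and 17.3% either way. The members' median difference was 0.45, beside -0.0039 over all genes. ETV5 had the largest, 1.32 ± 0.10 (limma adjusted p = 9.42e-07), since its fall by 1.96 at 24 h was one by 0.64 at 48 h. ETV4 followed with 0.87 ± 0.13 and DUSP6 with 0.74 ± 0.15 (limma adjusted p = 0.000324 and 0.00331). SPRY4, SPRED1 and DUSP4 had differences of 0.53, 0.49 and 0.39 (limma adjusted p = 0.0212, 0.0266 and 0.0371). For EGR1 the difference was -0.55 ± 0.10 (adjusted p = 0.00155 in limma), a deeper fall at 48 h, but its other 2 probe sets gave 0.12 and 0.30 and did not pass. SPRY2 (0.42 ± 0.14, limma adjusted p = 0.0514), SPRED2 (0.23, adjusted p = 0.282) and DUSP5 (-0.20, adjusted p = 0.357) did not pass. The count of 7 fell to 4 without replicate 1 or without replicate 2 of the vehicle at 48 h, and to 4 of 8 measured genes without _x_at and _s_at probe sets. In each fit that left out 1 array ETV5, ETV4, DUSP6 and EGR1 passed. The possible separate normalization of the times, given above, stands beside these differences of effects.

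The other probe sets were read in a fit over all 54613 probe sets that are not controls. At 24 h and 40 nM 12 of the 15 were lower and 0 higher, where 10.7% of all probe sets were called lower, 10.3% higher and 21.1% either way; the 3 others, 2 of SPRED2 and 231083_at of ETV5, lay below the median of all values on every array, at means of 3.22, 2.86 and 3.56. The other probe sets of EGR1, 227404_s_at and 201693_s_at, fell by 1.66 ± 0.18 and 1.08 ± 0.12, less than the main one. For ETV5, 203348_s_at fell by 1.68, 230102_at fell by 1.52 and 216375_s_at fell by 0.81, and for ETV4, 1554576_a_at fell by 1.43. DUSP6 gave -0.91 and -0.94 and SPRED1 gave -0.39 and -0.74, all past the test. Apart from those 3 dim probe sets, DUSP4 was the gene whose probe sets disagreed on a call: 204015_s_at fell by 0.57 ± 0.07 and 226034_at by 0.26 ± 0.07 (limma adjusted p = 3.5e-05 and 0.015), while the main one, 204014_at, did not pass.

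At 48 h and 40 nM 6 of the 15 other probe sets were lower and 0 higher (6.02% of all probe sets were called lower, 6.49% higher and 12.5% either way). They were both of EGR1 (-1.54 and -0.77), 203348_s_at and 216375_s_at of ETV5 (-0.63 and -0.46), 1554576_a_at of ETV4 (-0.32) and 208893_s_at of DUSP6 (-0.36). ETV4 and DUSP6 therefore passed by another probe set where the main one did not. Both other probe sets of DUSP4 stood at 0.10 and did not pass (limma adjusted p = 0.491 and 0.531).

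At 10 nM probe sets of the same gene differed in sign for several genes. For EGR1, 227404_s_at rose by 0.56 ± 0.18 (limma adjusted p = 0.043), while the main one and 201693_s_at overlapped with vehicle. For ETV5, 230102_at stood at 0.53 ± 0.18 (limma adjusted p = 0.0509) against falls by the main one, and it was the one read when _s_at probe sets were left out. For SPRED1, 235074_at rose by 0.38 ± 0.11 and 244439_at stood at -0.20 ± 0.16. DUSP6 was higher by 208892_s_at (0.57 ± 0.15) and the main one, with 208893_s_at at 0.10 ± 0.10. For DUSP4, 226034_at stood at -0.18 ± 0.07 (limma adjusted p = 0.0944), with every treated array below every vehicle array, against the rise by the main one. The third DUSP4 probe set, 204015_s_at, stood at 0.10 ± 0.07 (limma adjusted p = 0.439). In all, 1 of the 15, 1554576_a_at of ETV4 (-0.32), was lower and 3 were higher, where 9.28% of all probe sets were called lower, 9.8% higher and 19.1% either way. The 3' minus 5' difference of ACTB was large on these arrays, as given above; its part in the disagreement was not tested.

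**Figure D3:**
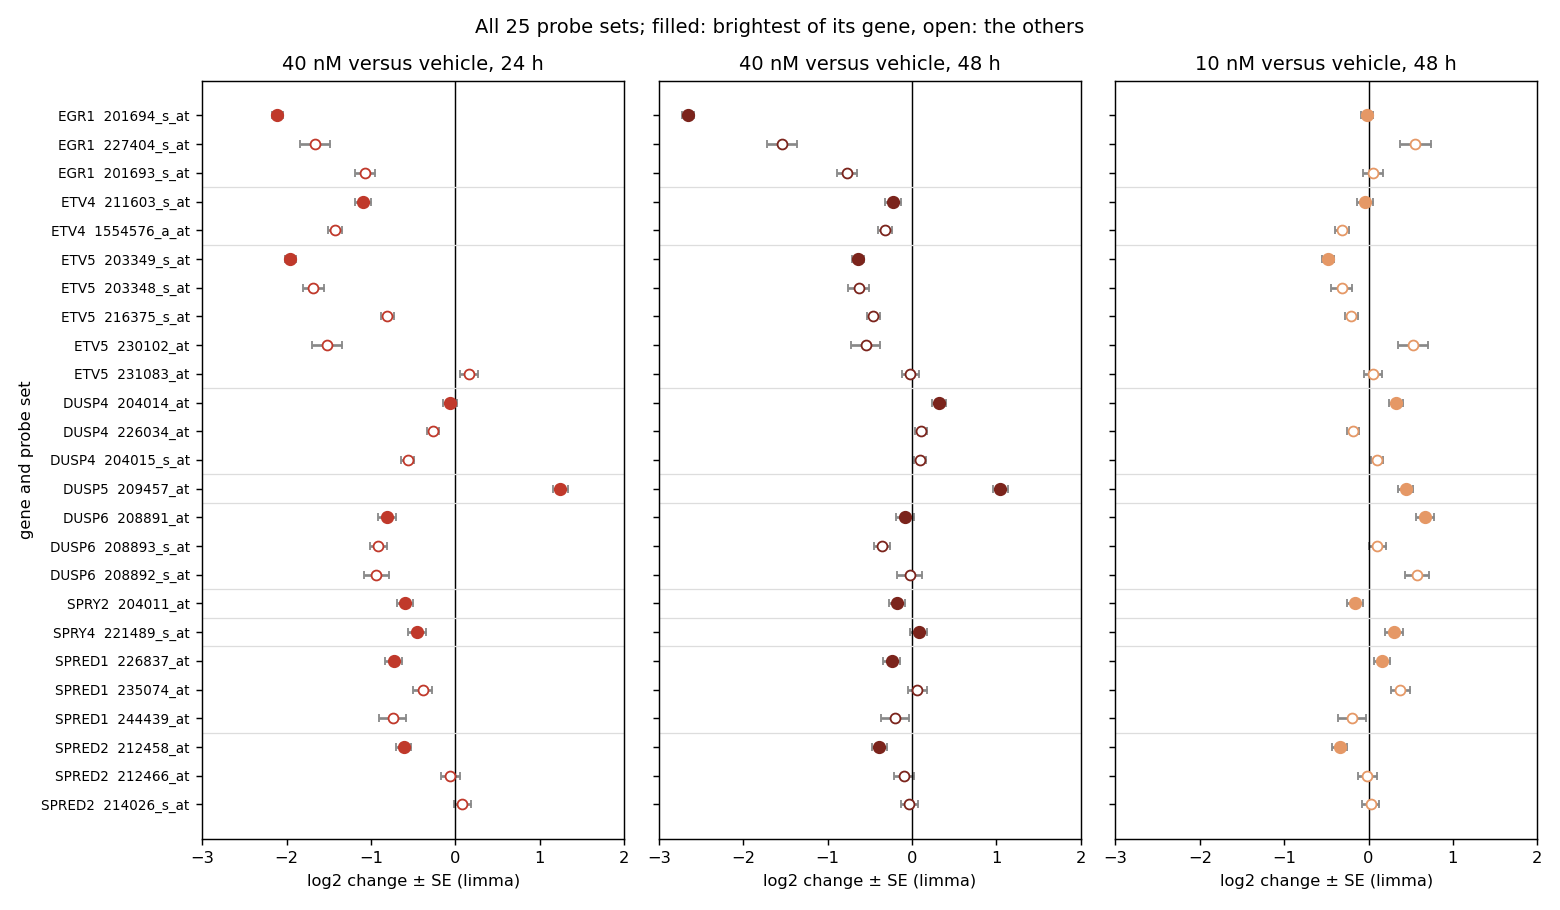
Log2 change with limma standard error for all 25 probe sets of the 10 genes, in 3 panels for 40 nM at 24 h, 40 nM at 48 h and 10 nM at 48 h; filled points are the brightest probe set of a gene and open points the others. At 24 h the points above 0 are DUSP5 and 1 dim probe set each of ETV5 and SPRED2, and in the 10 nM panel probe sets of EGR1, ETV5, DUSP4, SPRED1 and SPRED2 lie on both sides of 0.

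The vehicle groups were compared across time with the step in view. Over all genes the median log2 difference between vehicle at 48 h and at 24 h was 0.35, and 70.7% of all genes passed the test, 67.3% as higher and 3.35% as lower. Of the 10 genes, 4 were called higher and 2 lower on the deposited scale, and 7 lay below the shift of all genes. EGR1, DUSP6 and SPRED1 were below 0 on the deposited scale (-0.28, -0.33 and -0.077), with array medians subtracted (-0.78, -0.82 and -0.57) and with cyclic loess (-0.64, -0.68 and -0.43). SPRED1 did not pass on the deposited scale (limma adjusted p = 0.493). There its probe set 235074_at was called higher, by 0.26 ± 0.11, and 244439_at lower, by 0.73 ± 0.16. The other probe sets of EGR1 and DUSP6 did not pass on that scale, and 201693_s_at of EGR1 stood at 0.12 ± 0.12. The EGR1 call was lost when its probe sets were averaged (-0.13, limma adjusted p = 0.161). That of DUSP6 was lost without replicate 2 of the vehicle at 24 h or replicate 3 of the vehicle at 48 h (limma adjusted p = 0.0568 and 0.0602). SPRY2 was above 0 on all 3 scales, at 0.67, 0.18 and 0.28, but did not pass with array medians subtracted (limma adjusted p = 0.214). The sign of the other 6 changed with the scale. Levels at 48 h and 24 h are therefore not ordered here for those 6 genes, nor for SPRED1, whose probe sets were called in both directions. For EGR1, DUSP6 and SPRY2 an order rests on the main probe set, and each call was lost under some alternative.

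Other genes of the pathway were described by 5 lists that hold 94 further genes, of which 85 were measured and 9 were not analysed here. Of immediate early and growth factor response genes 18 of 26 were lower and 4 higher at 24 h and 40 nM, with a median log2 change of -0.67, where 16.7% of all genes were lower and 14.8% higher. FOSL1, a partner in AP-1, fell by 1.93 ± 0.09, its relative FOS fell by 1.90 ± 0.12, the small MAF factor MAFF fell by 1.84 ± 0.12, and HMGA2, a chromatin protein, fell by 1.60 ± 0.09. At 48 h and 40 nM 5 of the 26 were lower and 9 higher, with a median of 0.0014 (10.7% and 10.5% of all genes). FOS then fell by 2.28 ± 0.12, while TGFA and HBEGF, ligands of the EGF receptor, rose by 1.26 ± 0.09 and 0.97 ± 0.08 and MAFF rose by 0.98 ± 0.12. At 10 nM 5 were lower and 9 higher, with a median of 0.054 (11.9% and 14.4% of all genes). There FOS fell by 1.72 ± 0.12, although EGR1 did not pass, MYC fell by 0.93 ± 0.06, and TGFA and the urokinase receptor PLAUR rose by 1.70 ± 0.09 and 0.81 ± 0.06.

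Of 11 other ETV, DUSP, SPRY and SPRED genes 2 were higher and 2 lower at 24 h, with a median log2 change of -0.052. These counts are near the shares of all genes, 14.8% higher and 16.7% lower. Besides ETV1, DUSP7, a cytoplasmic ERK phosphatase, fell by 0.66 ± 0.17, whereas DUSP16 and DUSP10, phosphatases that act on JNK and p38, rose by 0.84 ± 0.07 and 0.80 ± 0.12. At 48 h and 40 nM DUSP16 and DUSP10 were higher by 0.94 ± 0.07 and 0.78 ± 0.12 and ETV1 was lower (-0.81 ± 0.15), with a median of 0.059 for the list (10.5% of all genes were higher and 10.7% lower). At 10 nM DUSP16 rose by 0.66 ± 0.07 and SPRY1 by 0.35 ± 0.11, and none of the 11 was lower (median 0.048; 14.4% of all genes were higher and 11.9% lower).

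Counts for the cascade itself stand beside the same shares of all genes. Of 16 measured receptors, adaptors and RAS regulators 3 were higher and 3 lower at 24 h and 40 nM (median -0.005), where 14.8% of all genes were higher and 16.7% lower. At 48 h and 40 nM 2 were higher and 2 lower (median -0.092; 10.5% and 10.7% of all genes), and at 10 nM 3 and 4 (median 0.012; 14.4% and 11.9%). The counts at 40 nM and the 3 higher at 10 nM are near the shares of all genes. The 4 of 16 that were lower at 10 nM are above the share of 11.9%, a difference that was not tested. EGFR, the EGF receptor, rose by 0.69 ± 0.08 at 24 h and by 0.50 ± 0.08 at 48 h, and MET, the receptor of hepatocyte growth factor, fell by 0.65 ± 0.06 and 0.41 ± 0.06, and by 0.70 ± 0.06 at 10 nM. Of 14 measured genes for kinases of the cascade, their scaffolds and CDC37, 7 were higher and 0 lower at 24 h (median 0.16; 14.8% and 16.7% of all genes). At 48 h and 40 nM 4 were higher and 3 lower (median 0.022; 10.5% and 10.7% of all genes), and at 10 nM 2 and 4 (median 0.0037; 14.4% and 11.9%). KSR1, a scaffold that holds RAF, MEK and ERK together, rose by 0.46 ± 0.06, MAP2K2, a MEK, by 0.39 ± 0.07, CDC37 by 0.37 ± 0.07 and MAPK3, an ERK, by 0.32 ± 0.07 at 24 h. At 10 nM KSR1 rose by 1.22 ± 0.06, whereas YWHAZ, a 14-3-3 protein, fell by 0.86 ± 0.06. Of 18 ERK substrates 6 were lower and 4 higher at 24 h (median -0.14; 16.7% and 14.8% of all genes), with ETS1 at -1.36 ± 0.07 and ELK3 at -0.91 ± 0.06, both ETS factors. At 48 h and 40 nM 4 were lower and 3 higher (median -0.10; 10.7% and 10.5% of all genes), and at 10 nM 5 and 1 (median -0.11; 11.9% and 14.4%), where ETS2 fell by 0.73 ± 0.07.

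**Figure D4:**
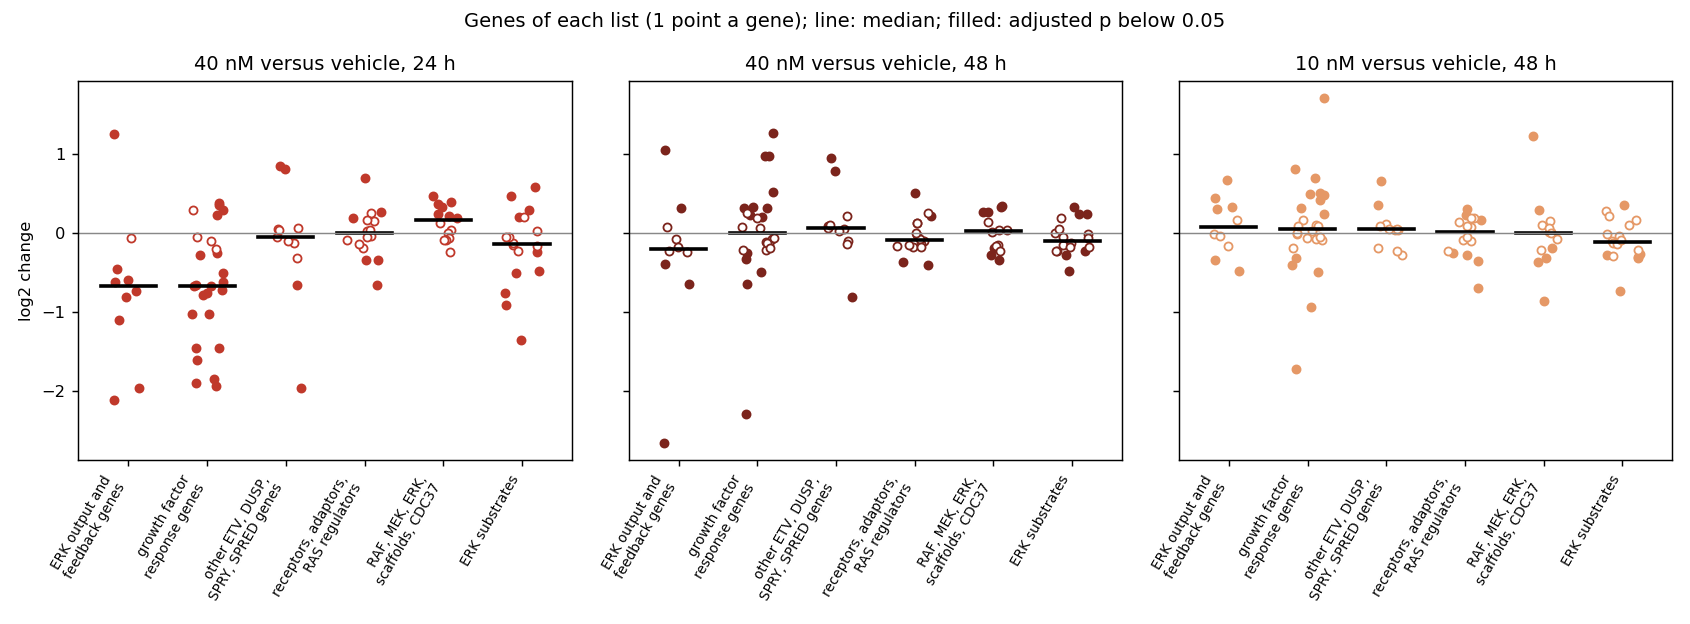
Log2 change of each measured gene of the 10 ERK output and feedback genes and of 5 other lists, 1 point a gene, in panels for 40 nM at 24 h, 40 nM at 48 h and 10 nM at 48 h; the thick line is the list's median and filled points passed limma's test. The medians of the ERK output and feedback genes and of the growth factor response genes are both -0.67 at 24 h, and all other medians in the 3 panels lie between -0.20 and 0.16.

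The pattern of each gene over the 15 arrays, with the mean of its time's vehicle arrays taken off, was set against that of 2710 other genes whose centred values spanned at least 1 log2 unit. The points share 15 arrays and a few group differences, so high correlations are common and are given as a description. ETV5 was most like ASNS (Pearson r = 0.992), which codes for asparagine synthetase, and EGR1 most like TRIB3 (r = 0.977), a pseudokinase gene. ETV4 was most like MARCHF4 (r = 0.988) and DUSP6 most like RNASEH2A (r = 0.979), a subunit gene of ribonuclease H. DUSP5 was most like PRICKLE2 (r = 0.991), DUSP4 most like DDX60 (r = 0.955), an antiviral helicase gene, SPRED1 most like FBXO45 (r = 0.981) and SPRED2 most like LETM2 (r = 0.974). SPRY2 was most like SETD9 (r = 0.946) and SPRY4 most like EP300-AS1 (r = 0.940). Among the 10 genes themselves, ETV4 and ETV5 were closest (r = 0.960), ETV5 and SPRY2 had r = 0.925, and DUSP6 and SPRED1 had r = 0.905. DUSP5 ran opposite to EGR1 (r = -0.905) and ETV5 (r = -0.855), and DUSP4 was near 0 with SPRED2 (r = -0.066).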

How the data were processed

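RNA of A549 cells was labelled with biotin (3' IVT Express kit) and hybridised to 15 arrays. The authors deposited log2 values per probe set, made by RMA; the submitters' processing notes also name Affymetrix Expression Console, and versions are not given in the sources used here. The table holds 54675 probe sets: 62 controls, 41091 with 1 symbol, 1801 with several and 11721 unnamed here. For 41037 of those with 1 symbol, the current symbol was looked up by gene ID, whether or not it had changed. A probe set with several symbols named no gene, and 2 of ZNF225, a former name of EGR1, were left out. The brightest probe set stood for each of 19775 genes.

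limma 3.58.1 under R 4.3.3 fitted 1 mean per group over the 15 arrays (lmFit, eBayes; 10 residual degrees of freedom), two-sided, with Benjamini-Hochberg adjustment over 19775 genes, or over 54613 probe sets for other probe sets, at 0.05. "±" after a change is the standard error, after a level the SD. The script was tested on simulated data. Precision is limited by how many arrays there are; the standard error of a change had a median of 0.097. No label says that replicates were separate cultures, so p-values measure the spread between arrays, which may be technical. Replicate numbers did not pair arrays: of 30 same-numbered pairs of different groups, 10 had correlated deviations over 0.1.

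Members, lists and tests were chosen with earlier results of these data known. Named are the 10 genes, up to 4 passing genes per list with the largest change in a comparison with vehicle, and the most alike gene of each member. Alternatives were array medians, cyclic loess, values raised to the 20th percentile, leaving out the dimmest 40% of genes, means of probe sets, _x_at and _s_at left out, all probe sets together, trend with robust prior, array weights, compared groups alone, each array left out, the replicate block and the 10 nM arrays left out.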

Additional observations from a re-analysis of the deposited data

Results flagged for a closer look

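The effect of 40 nM differed between 48 h and 24 h for 7 of the 10 genes (limma's test of the difference of effects, adjusted p below 0.05). The difference was 1.32 for ETV5, 0.87 for ETV4, 0.74 for DUSP6, 0.53 for SPRY4, 0.49 for SPRED1, 0.39 for DUSP4 and -0.55 for EGR1, on the log2 scale. For DUSP4 the call was lost under 12 of 24 alternatives, for SPRED1 under 9 of 24 and for SPRY4 under 3 of 23. For EGR1 it was lost under 1 of 23, the mean of its probe sets, where the difference was -0.040 (adjusted p = 0.895). The calls of ETV5, ETV4 and DUSP6 held under each of their 24 alternatives. Of the 15 other probe sets 7 had a more positive effect at 48 h and 0 a more negative one. Among all probe sets 5.04% were more positive, 4.54% more negative and 9.57% either way. Both other probe sets of DUSP4 passed, at 0.67 and 0.36 (limma adjusted p = 0.000656 and 0.0333). Those of SPRED1, at 0.45 and 0.54, did not pass (limma adjusted p = 0.0945 and 0.19). Groups of 3 arrays are too small for a test of single outlying arrays.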

How the results depend on the processing

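Of 50 log2 changes of the 10 genes in the 5 comparisons that involve geldanamycin, 28 kept their direction and their side of the threshold under each alternative run, 9 of 10 at 24 h and 40 nM. Leaving out 1 array kept the side of 333 of 360 values, lost 24 calls and gained 3; the other alternatives kept 530 of 570, lost 19, gained 20 and reversed 1, ETV5 at 10 nM without _x_at and _s_at probe sets (0.53, limma adjusted p = 0.0471). The number of the 10 genes called moved by over 1.5 times to 3 at 10 nM with the mean of probe sets, 8 at 48 h and 40 nM with the compared groups alone, 4 of 8 in the difference of effects without _x_at and _s_at probe sets, and, with array weights, 7 for 40 nM against 10 nM and 10 for vehicle over time. Leaving out 1 array gave 4 to 7 in the difference of effects. Over all genes, array weights gave 8036 calls at 10 nM (5204 before) and 5851 in the difference of effects (3420 before); the weights' iteration stopped before its tolerance. For vehicle over time, 13975 calls became 8802 with array medians subtracted, 8255 with cyclic loess and 9230 without the dimmest 40% of genes. There the share of calls that were higher was 95.3% on the deposited scale, 25.6% with array medians subtracted and 51.7% with cyclic loess. Signs reversed there for ETV4 (-0.47), ETV5 (-0.22), DUSP4 (-0.45), DUSP5 (-0.34), SPRY4 (-0.024) and SPRED2 (-0.013) with array medians subtracted, for ETV4 (-0.38), ETV5 (-0.062), DUSP4 (-0.26) and DUSP5 (-0.19) with cyclic loess, and for ETV4 with the mean of probe sets (-0.32) and without _x_at and _s_at ones (-0.66). The causes were not tested. With the replicate block, which the numbers do not justify as a pairing (6 of 15 arrays correlated best with their own number), 9 of the 10 genes were called at 24 h and 5 at 48 h at 40 nM, 5 at 10 nM and 6 in the difference of effects; 2 of 60 member calls were lost, SPRY4 at 10 nM (adjusted p = 0.0674) and DUSP4 in the difference of effects (0.0576).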
